A study of Solanum lycopersicum with 6 samples.

Results

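In embryos lacking SlNRPD1, 323 regions annotated to introns, untranslated regions (UTRs) or the first bases downstream of genes carried more CG methylation than in wild type. They were taken from the authors' list of differentially methylated CG regions by 2 conditions: a mean level that was higher in nrpd1, and a feature label of intron, 5' UTR, 3' UTR or downstream. The 323 regions belong to 4205 CG gains, which are 32.3% of the 13010 listed CG regions. By label they comprised 184 intronic, 76 3' UTR, 48 downstream and 15 5' UTR regions. The tables of the 3 cytosine contexts together hold 132092 regions.

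The embryos came from Micro-Tom, a dwarf tomato, and were 21 days past flowering. The nrpd1 group carried a knockout of SlNRPD1 (3 libraries), and the WT group was wild type (3 libraries). Genomic DNA had been treated with bisulfite, which leaves methylated cytosine readable as cytosine, and the deposited value of a region is 1 mean level per genotype. No value per library was given, the depth is unknown, and the labels leave unsaid whether the 3 libraries of each genotype represent separate plants, so no spread between libraries and no test between genotypes can stand beside the levels below. A whole embryo mixes cell types and both alleles, and an intermediate level in a fraction of cells cannot be told apart from partial methylation in all of them.

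NRPD1 forms the large catalytic subunit of the plant RNA polymerase IV, which makes precursors of the small interfering RNAs that direct methylation to matching DNA. CG methylation is copied after replication by a maintenance methyltransferase of the MET1 family and does not need that pathway once it is established. In plants it marks transposons, together with CHG and CHH methylation (H is A, C or T), and also the transcribed bodies of many genes, where it usually occurs without the other contexts. Introns can hold transposon insertions and so can carry methylation of either kind.

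The regions were chosen by their mean CG levels in the 2 genotypes, so these levels are given as a description, with no test. The median level was 68.5% in nrpd1 (quartiles 51.2 and 81.4) and 39.2% in wild type (23.2 and 53.2), with a median difference of 25.5 percentage points. Most regions thus already carried CG methylation in wild type. Levels below 10% in wild type were listed for 21 of the 323 (6.50%), near the 7.44% of all CG gains. These 21 had a median of 30.4% in nrpd1 (quartiles 25.5 and 36.2), against 7.53% in wild type. They were spread over the classes, with 10 in introns, 5 in 3' UTRs, 3 in 5' UTRs and 3 in downstream flanks. At the upper end, 86 regions (26.6%) stood at 80% or more in nrpd1, against 32.5% of all CG gains. These 86 had a median of 87.2% in nrpd1 and 60.4% in wild type. They made up 37 of 106 in later introns (34.9%), 15 of 48 in downstream flanks (31.2%), 17 of 78 in first introns (21.8%) and 13 of 76 in 3' UTRs (17.1%).

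Median levels by class lay within about 10 points of each other. Later introns, meaning the second or any following one, had medians of 71.3% in nrpd1 and 41.5% in wild type, and first introns 67.1% and 37.4%. Downstream regions had 70.5% in nrpd1 and 43.8% in wild type, 5' UTR regions 65.7% and 40.3%, and 3' UTR regions 62.2% and 33.8%. The quartile ranges of all 5 classes overlapped in each genotype. Differences under 20 points made up 18 of 184 intronic regions (9.78%), 18 of 76 3' UTR regions (23.7%) and 14 of 48 downstream regions (29.2%). Among all CG gains their share was 17.8%. Small gains were thus a lower share of the intronic regions than of either gene-end class.

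**Figure D1:**
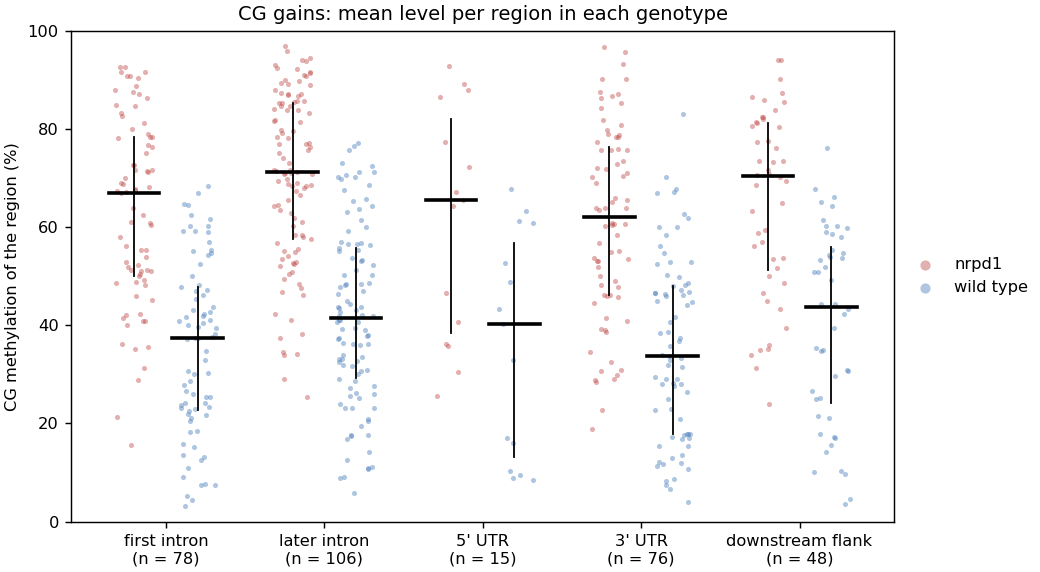
CG methylation (%) of each of the 323 regions in nrpd1 (red) and wild type (blue), by annotated class; thick bars are medians and thin lines run between the quartiles. The 2 genotypes were separated by a median of 25.5 points, and the classes lay within about the same range.

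At the limit set by the sign of the difference, no region came close to 0, because the authors' list holds no CG difference under 10 points. The smallest gain among the members was 10.2 points, with 18.9% in nrpd1 and 8.75% in wild type over a 53 bp 3' UTR region of chromosome 2. The smallest loss in the same features was -10.1 points, with 84.7% in nrpd1 and 94.8% in wild type, in an intron on chromosome 6.

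Gains made up an unequal share of the listed CG regions in the different features. In first introns, 78 of 507 CG regions were gains (15.4%, Wilson 95% interval 12.5 to 18.8), compared with 106 of 383 in later introns (27.7%, 23.4 to 32.4). In 3' UTRs the count was 76 of 151 (50.3%, 42.5 to 58.2) and in 5' UTRs 15 of 30 (50%). Downstream flanks had 48 of 168 (28.6%). First introns therefore had the lowest share of gains and the UTR labels the highest among the 5 classes. All together the features had 26.1% gains, below the 32.3% of all CG regions and the 44.5% of exons and above the 19.6% of promoters. These intervals describe counting error alone, as if regions were independent, and no test was made, since the sign of the difference chose the members.

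**Figure D2:**
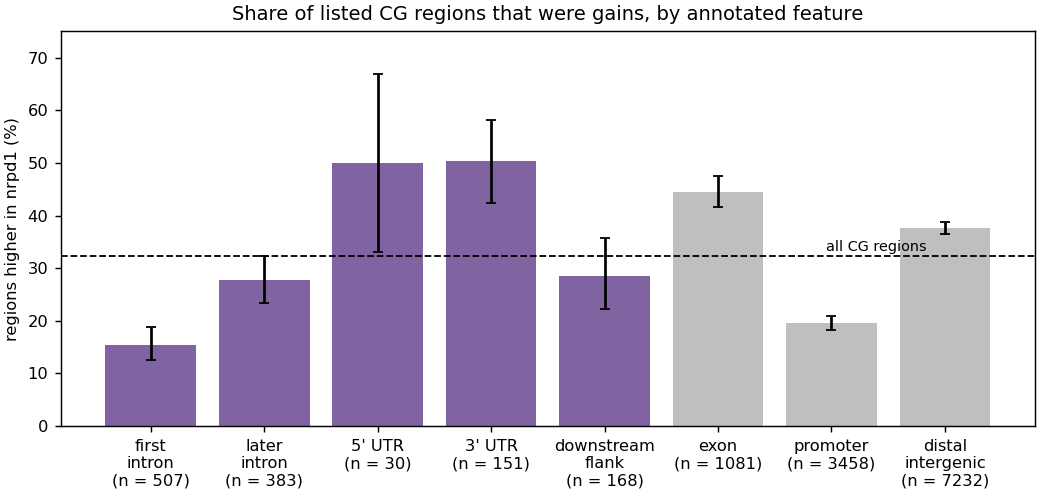
Share of listed CG regions that were higher in nrpd1 (%), by annotated feature; purple bars are the features of the 323 regions, grey bars the other features, error bars are Wilson 95% intervals (counting error only), and the dashed line is the 32.3% of all CG regions. First introns stand at 15.4% and the UTR labels at about 50%.

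The labels of gene ends depended on the strand of the assigned gene. Of the 76 3' UTR regions, 63 were assigned to plus-strand and 13 to minus-strand genes, and of the 48 downstream regions 42 and 6. Introns were balanced, with 84 on plus-strand and 100 on minus-strand genes. Lying 1 to 300 bp past the 3' end of their assigned gene were 39 CG gains of minus-strand genes, 38 of which the authors' annotation listed as distal intergenic and 0 as downstream. For plus-strand genes the corresponding 44 gains were listed as downstream in 41 cases. The 4 members with a 5' UTR label that overlapped a minus-strand assigned gene lay at a median of 93.7% of its length from the start, near the 3' end, whereas the 9 on plus-strand genes lay at 21.0%. The data thus go against the 5' UTR label on minus-strand genes, and also on the plus-strand gene of the largest 5' UTR gain, described below. The UTR and downstream classes are named here by their label alone. Intron numbers ran from the 5' end on both strands.

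The 12 gains of greatest size were 11 intronic regions and 1 3' UTR region, with differences between 43.4 and 68.1 points. Gains of 50 points or more numbered 4 (1.24%), against 2.95% of all CG gains. The largest lay on chromosome 7 from 66394825 to 66394970 (SL4.0 assembly, as in all coordinates here), in the second of 5 introns of the minus-strand gene Solyc07g064380.4. Its 9 listed cytosines averaged 76.9% in nrpd1 and 8.83% in wild type. No listed CHG or CHH region overlapped it.

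The second largest, 135 bp on chromosome 3 from 28437119 to 28437253, lay in the last of 6 introns of its gene and had 89.0% in nrpd1 and 37.2% in wild type. Next in size, a 3' UTR region on chromosome 10 from 62271097 to 62271728 had 63.9% in nrpd1 and 12.2% in wild type over 30 cytosines, the highest number of cytosines among these 4. The remaining one lay on chromosome 5 from 8504988 to 8505617, in the only intron of its gene 289 bp past the transcription start, with 90.5% in nrpd1 and 40.1% in wild type. The only region of these 12 below 5% in wild type was a 51 bp stretch of 4 cytosines in a single-intron gene on chromosome 1 (85862149 to 85862199), with 48.6% in nrpd1 and 3.26% in wild type. The widest of the 12 was a second-intron region of 775 bp on chromosome 8 (51242441 to 51243215), with 84.7% in nrpd1 and 39.0% in wild type over 23 cytosines.

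The largest gains of the gene-end classes followed. The largest downstream gain was also the widest member, 1083 bp with 45 cytosines on chromosome 10 from 6287029 to 6288111, at 85.6% in nrpd1 and 44.3% in wild type. The largest 5' UTR gain, on chromosome 12 from 2726927 to 2727216, had 65.7% in nrpd1 and 33.0% in wild type. It began 1731 bp past the start of its plus-strand gene of 1890 bp, at the 3' end, so its position goes against its label. Behind the leading 3' UTR region came one on chromosome 9 from 43386525 to 43386844, with 95.7% in nrpd1 and 53.0% in wild type, which overlapped a CHG gain. The identifiers of the assigned genes are not paired with names in the files, and 0 of the 311 matched the RefSeq gene table, so no function can be attached to them here.

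Other contexts were not used to choose the regions. Of the 323, 270 (83.6%, Wilson 95% interval 79.2 to 87.2) overlapped no listed CHG or CHH region by 1 bp or more, against 69.9% of all CG gains. The share was 90.2% in exonic gains, 73.5% in promoter gains and 63.8% in distal gains, so the members lay between the exonic and the promoter gains. A CHG gain was met by 23 members (7.12%, Wilson 95% interval 4.79 to 10.5), against 20.7% of all CG gains. The share was 6.24% in exonic CG gains (30 of 481), 10.9% in promoter gains (74 of 679) and 27.4% in distal intergenic gains (745 of 2722). The members were below the distal gains on 12 of 12 chromosomes, by a mean difference of -19.9 points ± 5.61 (SD over chromosomes), and above the exonic gains on 6 and below them on 5. Chromosomes are blocks of the same libraries and not replicates, so these counts describe evenness along the genome and no test was made. The share of CG losses in the same features that met a CHG gain was 0 of 916, which allows a share of up to 0.328% by the limit of 3 counts and up to 0.418% by the Wilson interval.

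The 23 members over a CHG gain were wider and more methylated than those that overlapped no listed region. Their median width was 457 bp and their CG level 85.6% in nrpd1 and 50.04% in wild type, compared with 169.5 bp, 66.2% in nrpd1 and 37.7% in wild type for those 270. Width moved with the overlap, and its part in it was not tested. The CHG gains over them had medians of 59.4% in nrpd1 and 22.6% in wild type. Of these CHG gains, 5 lay below 10% in wild type, at 22.7 to 53.0% in nrpd1 and 4.55 to 7.69% in wild type.

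At 5 members CG, CHG and CHH gains lay on top of each other. A CHH gain was met by 6 members in all (1.86%), against 3.90% of all CG gains. The share was 1.66% in exonic, 1.18% in promoter and 5.22% in distal gains, so such overlap was not particular to the members. The chromosome 5 intron described above had CHG levels of 80.5% in nrpd1 and 25.8% in wild type over 2122 bp, and CHH levels of 18.8% in nrpd1 and 3.996% in wild type. A 5' UTR region of chromosome 1 (3718104 to 3719061) had CG levels of 93.0% in nrpd1 and 60.9% in wild type, CHG levels of 87.3% and 28.0%, and CHH levels of 26.2% and 5.66%. The other 3 lay in second introns, on chromosome 9 at 38217565 and 60556815 and on chromosome 10 at 33169405, with CG levels between 88.0 and 95.9% in nrpd1 and between 56.5 and 77.1% in wild type. In 4 of the 5 the CHH level in wild type was below 6%, and in all 5 it was below 10%.

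The opposite combination, a CG gain on a CHH loss, was found at 27 members (8.36%, Wilson 95% interval 5.81 to 11.9), against 9.77% of all CG gains. Exonic gains had 2.91% (14 of 481), promoter gains 15.2% (103 of 679) and distal gains 9.81% (267 of 2722). CG losses of the same features had 37.4% (343 of 916). Downstream regions had 9 of 48 (18.8%, 10.2 to 31.9), introns 12 of 184 (6.52%, 3.77 to 11.1) and 3' UTRs 5 of 76 (6.58%, 2.84 to 14.5). The members lay below the CG losses of the same features on 12 of 12 chromosomes (mean difference -29.2 points ± 10.1, SD over chromosomes) and above the exonic gains on 9 of 12. They lay below the promoter gains on 11 of 12, and above the distal gains on 6 and below them on 6.

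**Figure D3:**
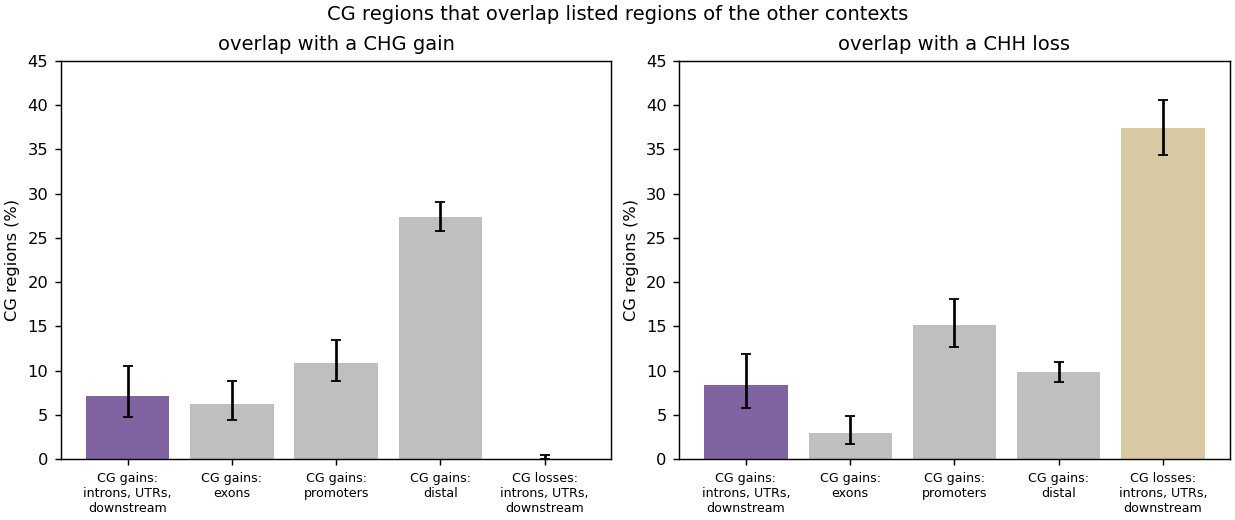
Share of CG regions (%) that overlap a CHG gain (left) or a CHH loss (right) by at least 1 bp, for the 323 CG gains in introns, UTRs and downstream flanks (purple), other CG gains (grey) and CG losses of the same features (tan); error bars are Wilson 95% intervals (counting error only). The 323 regions stand at 7.12% and 8.36%.

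These 27 members were picked as CG gains over a CHH loss, so the opposite directions are fixed by that choice and the levels are a description. The CHH losses had medians of 7.48% in nrpd1 and 23.1% in wild type, while CG in the members stood at 69.5% in nrpd1 and 42.7% in wild type. Each CHH level is the mean over the whole CHH loss, which covered at least 50% of the CG region at 17 of the 27. The largest CG gain among them was a 3' UTR region of chromosome 12 (61084129 to 61084397), with CG levels of 86.4% in nrpd1 and 48.0% in wild type. The CHH loss that partly overlapped it (61084325 to 61084816) had 6.28% and 18.1%. In a last intron on chromosome 3 (23848679 to 23849161) CG was 68.5% in nrpd1 and 35.9% in wild type. The CHH loss partly over it (23848236 to 23848761) had 4.47% and 16.7%. A CHG loss overlapped 5 members (1.55%), near the 1.07% of all CG gains, and 2 of these members also lay on a CHH loss. The share over a CHG loss was 1.25% in exonic, 2.36% in promoter and 0.661% in distal gains.

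Losses of the other contexts were also counted beside the members, over a span wider than the regions themselves. A CHH loss was listed within 1000 bp but without overlap for 114 members (35.3%, Wilson 95% interval 30.3 to 40.7), and a CHG loss for 52 (16.1%, 12.5 to 20.5). For exonic gains these shares were 43.2% and 19.3%, for promoter gains 49.5% and 27.8%, and for distal gains 31.1% and 11.9%. The shares of members beside a CHH or a CHG loss thus lay near those of all CG gains, 35.8% and 15.6%, and below those of the exonic and promoter gains. Of all CG gains, 1504 lay beside a CHH loss and 411 on one, so a higher count beside than on was not particular to the members. The distance of 1000 bp was chosen after the values were seen. By label, 34 of the 184 intronic members (18.5%) shared their intron with a listed CHG or CHH loss, compared with 329 of 706 intronic CG losses (46.6%). Losses with another label were not counted, so these are lower limits. A CHH loss overlapped 12 intronic members, and for 6 of them it carried the label of the same intron.

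In 11 introns, which held 14 members, a CG gain, a CHG loss and a CHH loss were listed together under the label of the same intron. Taken singly, a CHG loss shared the intron of 10.3% of the 184 intronic members and a CHH loss that of 15.8%. For intronic CG losses these shares were higher, 35.4% and 32.3%, and the share with both was not counted. The medians of the 14 members were 72.9% in nrpd1 and 40.2% in wild type. The largest of the 323 gains is 1 of these 14. In the second intron of Solyc07g064380.4 the CG gains lay 1892 to 2020 bp and 2884 to 3029 bp from the transcription start, at 79.7% and 76.9% in nrpd1 and at 42.7% and 8.83% in wild type. Between them the CHG level was 23.3% in nrpd1 and 50.1% in wild type (2147 to 2314 bp), and the CHH level 2.85% in nrpd1 and 14.9% in wild type (2145 to 2662 bp). An exonic CG gain followed at 3965 to 4090 bp, with 59.4% in nrpd1 and 34.4% in wild type.

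The only gene with 3 member regions had the same arrangement. Solyc07g042890.3, on the plus strand of chromosome 7 from 56253441 to 56260089, carried all 3 in its second and last intron. CG stood at 92.2%, 93.1% and 79.8% in nrpd1 and at 73.2%, 71.3% and 40.8% in wild type, in order from the transcription start. Between the middle gain and the last, from 4634 to 5001 bp, the CHG level was 30.7% in nrpd1 and 65.2% in wild type, and the CHH level over nearly the same stretch was 5.62% and 16.2%. The promoter CHH loss nearest its start had 13.9% in nrpd1 and 37.1% in wild type. This arrangement was looked at after the values were seen, and in both genes the gains and losses were adjacent and did not overlap. Of the 11 introns, only those of these genes held several members, and the others were not all alike. In Solyc02g069960.4 and Solyc05g006780.3 the CG gain overlapped the CHH loss. In Solyc05g006780.3, Solyc06g059930.4, Solyc08g082310.3 and Solyc09g092720.3 a CG loss was also listed in the same intron.

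**Figure D4:**
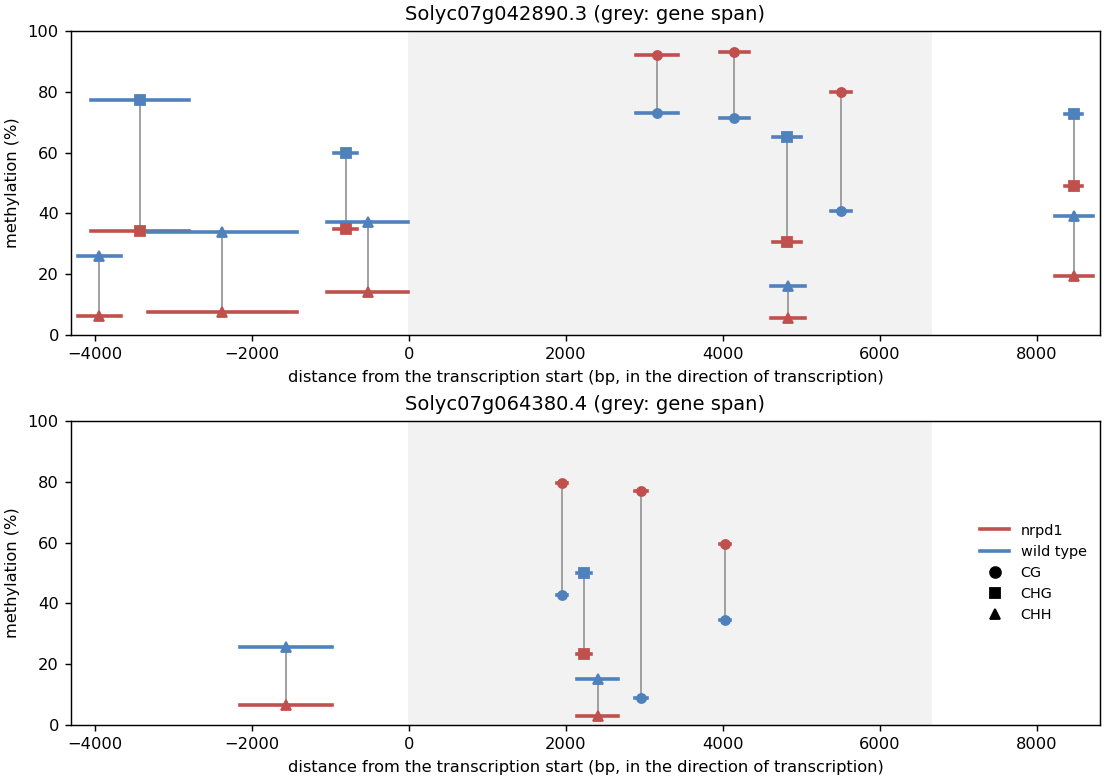
Every listed region assigned to Solyc07g042890.3 (top) and Solyc07g064380.4 (bottom), by distance from the transcription start (bp) and methylation level (%); horizontal bars span the regions, red is nrpd1 and blue is wild type, circles are CG, squares CHG and triangles CHH, and grey shading is the gene. In both genes the CG gains inside the second intron lie on either side of a CHG and CHH loss.

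The members were assigned to 311 genes, of which 300 had 1 member, 10 had 2 and 1 had 3. Another CG gain of any feature was assigned to the same gene for 76 members (23.5%, Wilson 95% interval 19.2 to 28.5), against 39.2% of all CG gains. The share was 19.8% in exonic gains, 24.7% in promoter gains and 48.1% in distal gains, so the members lay near the exonic and promoter gains. An exonic CG gain was assigned to the same gene for 20 members (6.19%). The share was 2.80% in promoter gains, 1.43% in distal gains and 3.06% in CG losses of the same features. A CG loss was assigned to the same gene for 71 (22.0%, 17.8 to 26.8), against 27.9% of all CG gains, 24.9% of exonic, 20.03% of promoter and 31.1% of distal gains. A promoter CHH loss was listed for the genes of 192 members (59.4%), compared with 68.4% for exonic gains, 60.2% for promoter gains and 43.3% for distal gains. The share was 50.15% for all CG gains, 64.7% for all CG regions and 76.0% for CG losses of the same features. Where a member lay outside its assigned gene, as for 17 intronic and 20 3' UTR regions, the assigned gene is not the host.

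Of the 184 intronic members, 78 were in the first intron (42.4%, Wilson 95% interval 35.5 to 49.6), 49 in the second, 18 in the third and 39 in a later one (21.2%, 15.9 to 27.7). Among the 890 listed intronic CG regions, 57.0% were in the first intron and 12.02% in the fourth or a later one. The last intron held 77 of the members (41.8%, 35.0 to 49.1), against 31.0% of the intronic CG regions. These counts include 24 members in the only intron of their transcript, which is both first and last. The median number of introns was 4. For the 167 whose host was also the assigned gene, the median distance to the transcription start was 1738 bp (quartiles 817.5 and 2998), and 97 lay within 2000 bp. The assigned genes had a median length of 3908 bp, against 2647 bp for exonic gains and 1684 bp for all CG gains.

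The members were short. The median width was 178 bp, with 10 cytosines, against 217 bp and 11 for all CG gains. Exonic gains had 156 bp and 13 cytosines. Per 100 bp the members held a median of 6.32 listed cytosines and exonic gains 8.85, with the lower density in the members on 11 of 12 chromosomes. A median of 10 cytosines over an unknown depth limits the precision of each level.

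The listed CG regions as a whole were concentrated at the chromosome ends, with 68.6% of them and 51.7% of all CG gains in the outer 20% at either end. Of the 321 members on chromosomes 1 to 12, 228 (71.0%, Wilson 95% interval 65.8 to 75.7) lay there, a share whose interval includes that of all CG regions, compared with 81.9% of exonic gains, 74.3% of promoter gains, 38.4% of distal gains and 87.7% of CG losses in the same features. The members exceeded the distal gains on 12 of 12 chromosomes (32.5 points ± 11.5, SD over chromosomes) and were below the exonic gains on 11 of 12 (-11.75 points ± 11, SD over chromosomes). First introns, at 61.5%, and later introns, at 67.6%, had lower shares there than 3' UTRs, at 80.3%, or downstream flanks, at 74.5%, with intervals that overlap.

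**Figure D5:**
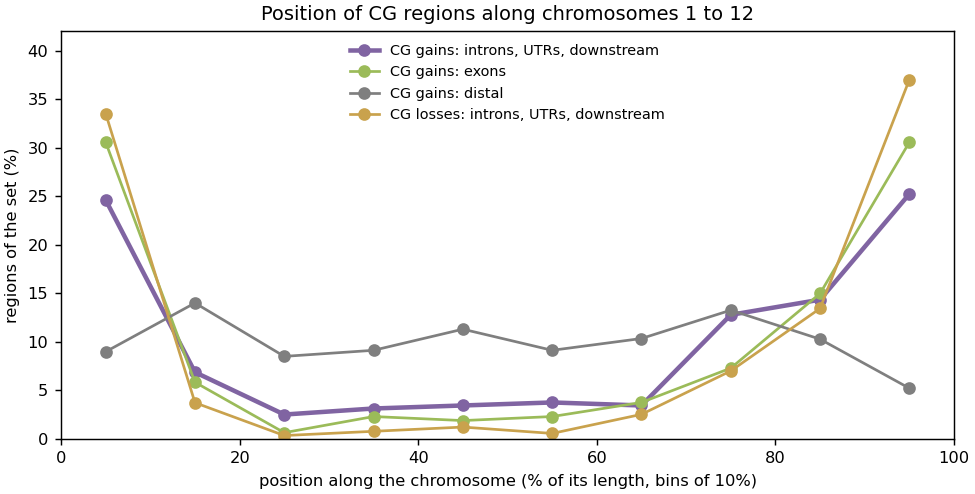
Share of each set of CG regions (%) in bins of 10% of chromosome length, chromosomes 1 to 12 together; the thick purple line is the 323 gains in introns, UTRs and downstream flanks (321 on these chromosomes). The first and last bins hold 24.6% and 25.2% of them, against 8.97% and 5.20% of the distal gains.

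Chromosome 4 had the most members (36) and chromosome 6 the fewest (14). As a share of the CG regions in these features, gains were 37.5% on chromosome 4 and 14.3% on chromosome 6, with a median of 26.9% over the 12. Chromosome 6 also had the lowest median level in nrpd1, 51.7%, against 29.9% in wild type there. Chromosome 10 was close to it, with 17 members, 15.2% gains, and medians of 56.3% in nrpd1 and 27.9% in wild type.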

How the data were processed

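The authors deposited 3 tables of regions that differ between genotypes, with the mean methylation of each genotype as a fraction, printed here as a percentage, per the file headers. Per the submitters' processing notes, Trim Galore 0.6.7 and Bismark 0.24.0 were used. The region caller, its thresholds, the annotation tool and the conversion rate are unknown here, and incomplete conversion would raise apparent levels. The authors' region statistic, a deposited score, served only to select regions in an alternative. The listed length exceeded end minus start plus 1 by 1 bp in every region, so starts may be offset by that much.

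Differences are nrpd1 minus wild type. Overlaps needed 1 bp. Chromosome length was the furthest listed region end. Shares have Wilson 95% intervals from scipy 1.17.1, and functions were tested on simulated data. Because each genotype has 1 deposited mean, no test was made. The members, lists and rule for named regions were chosen with earlier results of these data known. Named regions are the 12 largest gains, the 3 largest per class, up to 8 genes with several members, 5 each over CHG and CHH gains and over CHH losses, the 3 widest, and the 3 smallest gains and losses, and not all are printed. The planned grouping of genes by description could not be made, as no identifier matched.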

Additional observations from a re-analysis of the deposited data

How the results depend on the processing

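Leaving out 1 replicate could not be done, and no paired analysis was possible because the deposited values are means per genotype. Of 110 recomputed values, 97 stayed within 1.5 times the count or inside the interval of the share. Most of the 110 left out 1 chromosome at a time, which removed too few regions to move the count that far. The 97 is therefore no measure of stability, and the 13 that moved all came from other settings. The number of regions was 136 with the 50% of CG regions of larger statistic, 172 with at least 10 cytosines, 184 with introns alone, and 200 and 123 with plus-strand and minus-strand assigned genes alone. The share over a CHG gain was 12.5% with the larger statistic, and the share with another gain in the gene was 17.6% with the larger statistic and 13.9% with at least 10 cytosines. The share over a CHH loss was 5.26% when 50% of the CG region had to be covered and 14.9% when regions within 200 bp counted. The share in the outer part of chromosomes was 65.0% with introns alone, 65.0% on minus-strand genes and 49.8% when the outer part was 10%. The cause of these shifts was not tested beyond the change of regions or limits itself. Without 1 chromosome at a time the number ranged from 287 to 309, the share over a CHG gain from 6.54 to 7.61%, over a CHH loss from 7.32 to 9.34%, in the outer part from 69.9 to 73.1%, and with another gain in the gene from 22.5 to 23.99%. The strand alternatives were chosen after seeing the data, as was adding 38 distal-listed regions past the 3' ends of minus-strand genes, which made 361 and moved no share out of its interval. Depth is unknown, so the precision of single levels is too.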

Other observations

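The strand dependence of the gene-end labels extended to all 3 tables. Of the regions lying 1 to 300 bp past the 3' end of their assigned gene, 1669 of 1728 were listed as downstream for plus-strand genes, whereas 63 of 1707 were so listed for minus-strand genes and 1594 of those were listed as distal intergenic. Of the CHH regions labelled 3' UTR, 569 were assigned to plus-strand and 142 to minus-strand genes. Intronic CHH regions were assigned to plus-strand genes in 1339 and to minus-strand genes in 1361 cases.

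On chromosome 11, a pair of members (52160179 to 52160349 and 52160472 to 52160546) had 58.5% and 53.7% in nrpd1 and 33.3% and 25.2% in wild type. They were labelled 3' UTR and downstream, and the first overlapped their shared assigned gene. On chromosome 12 another pair with the same labels (61502942 to 61503178 and 61503252 to 61503351) had 60.7% and 57.0% in nrpd1 and 33.9% and 35.04% in wild type, but both regions lay outside their assigned gene, at -6897 and -6724 bp from its start.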
